A study of Mus musculus with 12 samples.

Results

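The circadian clock genes described here are the 10 rows of the TPM table named Bhlhe40, Bhlhe41, Per1, Per2, Per3, Cry1, Cry2, Nr1d1, Nr1d2 and Dbp, out of 45706 genes in all. They were chosen by name as repressors, receptors and an output factor of the molecular clock, and all 10 passed the filter on low values that left 18909 genes for testing. BN1 is a murine hepatoblastoma line grown from a liver tumor driven by mutant beta-catenin and mutant NRF2 (the B and N of its name). All groups carried the Cdkn2a KO genotype and a Tie2-EGFP reporter, in which the endothelial Tie2/Tek promoter drives EGFP, introduced as pooled stable clones. Unsorted normoxic cells (UN) were kept in ordinary culture air, written here as 21% oxygen, and unsorted hypoxic cells (UH) spent 2 days in 1% oxygen. Sorted normoxic cells (SN) were the EGFP+ cells isolated after such an exposure and expanded for about 10 days in normoxia, and sorted hypoxic cells (SH) were SN cells returned to 1% oxygen for 2 days. Each group had 3 libraries, called here by group and replicate number (UN1 to SH3), and the study calls them independent without saying what separated them, so the p-values measure the spread between these libraries, which may be technical. The sample titles call the cells of all groups EGFP+, unsorted ones included, whereas the study's methods describe a sort for EGFP only before SN and SH. The time of day at harvest and any synchronization of the cultures are not given in the sources used here, so phase and amplitude of a rhythm were not measured.

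The mammalian clock is a transcriptional feedback loop. BMAL1 (encoded by Arntl) pairs with CLOCK or NPAS2 on E-box DNA and activates the Per, Cry, Nr1d, Bhlhe40/41 and Dbp genes, whose products, apart from DBP, feed back as repressors. In liver the loop times glucose, lipid and bile acid metabolism, and its activators are PAS-domain proteins, as are the HIF subunits that carry the hypoxia response.

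The promoters below are shown because the words in capitals are those through which clock and hypoxia factors are generally known to bind. RefSeq promoter records (GRCm38.p6) matched 8 of the 10 clock genes, all but Bhlhe40 and Per2. Bhlhe41, Cry2 and the pathway gene Ciart are printed as genes whose TPM rose in hypoxia in both kinds of cells, and Per3, Nr1d1 and Nr1d2 as genes that were lower in UH than in UN. Each run reads 5′ to 3′ on the strand of the gene, ends at or before its start, and leaves out bases inside the gene's own GENCODE span.
Bhlhe41, chr6:145865559-145865670, minus strand: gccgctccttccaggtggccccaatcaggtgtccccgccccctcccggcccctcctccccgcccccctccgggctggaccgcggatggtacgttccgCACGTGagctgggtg
Cry2, chr2:92434070-92434319, minus strand: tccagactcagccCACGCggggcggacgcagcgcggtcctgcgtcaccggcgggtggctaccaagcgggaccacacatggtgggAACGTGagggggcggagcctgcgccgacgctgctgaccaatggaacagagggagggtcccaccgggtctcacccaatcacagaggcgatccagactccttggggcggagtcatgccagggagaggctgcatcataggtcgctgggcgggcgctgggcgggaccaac
Ciart, chr3:95882252-95882478, minus strand: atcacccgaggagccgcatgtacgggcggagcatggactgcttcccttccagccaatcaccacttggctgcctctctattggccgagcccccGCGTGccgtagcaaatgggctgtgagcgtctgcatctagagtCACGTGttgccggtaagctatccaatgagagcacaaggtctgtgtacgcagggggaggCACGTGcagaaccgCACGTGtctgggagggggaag
Per3, chr4:151044666-151044915, minus strand: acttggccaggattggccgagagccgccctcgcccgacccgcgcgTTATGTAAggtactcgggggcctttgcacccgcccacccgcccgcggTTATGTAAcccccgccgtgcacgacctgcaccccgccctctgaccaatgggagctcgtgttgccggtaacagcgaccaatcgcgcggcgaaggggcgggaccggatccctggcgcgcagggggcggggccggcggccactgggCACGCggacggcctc
Nr1d1, chr11:98775378-98775627, minus strand: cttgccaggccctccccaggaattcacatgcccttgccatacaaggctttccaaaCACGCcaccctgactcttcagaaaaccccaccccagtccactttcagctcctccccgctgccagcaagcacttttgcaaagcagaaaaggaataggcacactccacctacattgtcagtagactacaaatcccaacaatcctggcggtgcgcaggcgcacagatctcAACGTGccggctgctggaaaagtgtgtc
Nr1d2, chr14:18239128-18239356, minus strand: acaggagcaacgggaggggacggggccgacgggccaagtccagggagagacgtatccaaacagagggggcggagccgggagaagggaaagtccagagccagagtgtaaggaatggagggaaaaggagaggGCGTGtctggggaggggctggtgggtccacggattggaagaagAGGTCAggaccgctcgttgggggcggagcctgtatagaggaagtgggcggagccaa
Capitals mark the E-box CACGTG, the E-box-like word CACGTT, the hypoxia response core as ACGTG or GCGTG, the D-box words TTATGTAA and TTATGCAA, and AGGTCA, the word read by REV-ERB and ROR receptors. Both strands were searched, so AACGTG and CACGC are reverse complements of listed words. Every CACGTG holds ACGTG on both strands, and every CACGTT holds ACGTG on the other strand, so these matches are not separate.

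The 250 bases before the start were searched in full. CACGTG was found in 3 of the 8 clock genes (Bhlhe41, Per1 and Cry1) and in 6.02% of 32817 promoters, and CACGTT in Cry1, Cry2 and Nr1d1 and in 3.85% of promoters. ACGTG lay in 6 of the 8 clock genes against 16.6% of promoters, and GCGTG in all 8 against 28.1%. A gene was counted if any of its starts held the word, whereas the percentages count single promoters. Per1 had more than 1 start, with ACGTG and GCGTG before different ones. Its windows lie inside its own GENCODE span, as do the GCGTG matches of Bhlhe41. Ciart held 3 copies of CACGTG. Per3 held TTATGTAA at 2 positions, a word found in 0.817% of promoters, while TTATGCAA was found in Per1 and in 0.695% of promoters. AGGTCA lay in Per1 and Nr1d2 and in 14.0% of promoters, and the cAMP response word TGACGTCA was in none of the 8 clock genes and in 1.55% of promoters. The clock gene promoters were GC-rich, with a median of 64.0% over 9 starts against 52.4% over all promoters, and their words were not compared at matched GC content. A match describes letters in this window and is not a measured binding site.

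The 10 hypoxia genes taken as a check separated the libraries by label. Of these genes, 10 of 10 were higher in UH than in UN (13.0% of all genes) and 9 of 10 higher in SH than in SN (21.5%). Their mean level on the log2(TPM + 1) scale was 7.72 to 7.86 in UH and 7.29 and 7.30 in SH1 and SH2, but 6.80 in SH3. In normoxia it was 4.32 to 4.61 in UN, where UN1 was highest, and 3.99 to 4.32 in SN, where SN3 was highest. UN1 stood apart from UN2 and UN3: the summed TPM of 6 fibroblast genes was 4314 there against 1151 and 1013. The same sum was 4546 to 6806 in UH, 165 to 185 in SN and 41.0 to 65.2 in SH. These 6 genes did not move together. In UH vs UN the 3 collagen genes were higher and 3 were lower. Those lower averaged 142 TPM in UN and 28.4 in UH for Pdgfra, 44.7 and 15.2 for Pdgfrb and 172 and 53.8 for Dcn. In SN vs UN 4 were lower and 2 did not pass. Within UN, Pdgfra alone was lower in UN1, at 80.4 TPM against 168 and 176 in UN2 and UN3. The hepatoblastoma label was checked on 8 hepatocyte and hepatoblast genes: Alb was at most 4.23 TPM, Apoa1 at most 0.789 TPM and Ttr at most 0.474 TPM in any library. Of the other 5, Krt18 was 63.5 TPM or higher in all 12 libraries, while group means in UN and SN were 65.5 and 4.78 TPM for Krt8, 58.7 and 0.389 for Dlk1, 3.85 and 0.263 for Hnf4a and 1.83 and 9.20 for Afp. The summed TPM of 6 endothelial markers was 0.360 to 0.607 in UN, 1.49 to 2.07 in UH, 3.88 to 4.34 in SN and 6.06 to 8.83 in SH. Tek, whose promoter drives the reporter, averaged 0.133 TPM in UN and 2.49 in SN, an 18.7-fold higher mean (adjusted p = 1.80e-06, limma), and Plvap 0.156 in UN and 4.13 in SH, while Pecam1, Cdh5, Kdr and Emcn were at most 0.484 TPM in any library. Of the 4 leukocyte markers Ptprc and Adgre1 were at most 0.121 TPM, Csf1r was 1.72 to 7.47 TPM, and Cd68, a lysosomal protein gene, averaged 3.09 TPM in UN, 13.4 in UH, 7.88 in SN and 53.9 in SH. These markers moved with the groups, and their part in the clock gene values was not tested. Cdkn2a RNA averaged 265 TPM in UN, 74.1 in UH, 13.2 in SN and 8.46 in SH. The locus was mutated within an exon and mutant forms are expressed in this line, so TPM does not test the knockout. In bulk RNA, fewer cells that express a gene and less RNA per cell cannot be told apart.

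The first comparison asked how the clock genes differed after 2 days of hypoxia in unsorted cells. Of the 10 clock genes, 5 rose in UH against UN (Bhlhe40, Bhlhe41, Cry2, Per1 and Cry1), 4 fell (Nr1d2, Per3, Nr1d1 and Per2) and Dbp did not pass. Across all genes tested, 13.0% were higher and 33.5% lower by the same rule, an adjusted p under 0.05 in limma. With median-of-ratios scaling the same comparison gave 5 higher and 2 lower clock genes, and the median of all genes was 0.0004 (log2). Shares of all genes are given only for the main fit, of TPM without that scaling in all 12 libraries. Counts from median-of-ratios scaling and from other fits, here and below, have none beside them. By the stricter rule that also asks for more than a 2-fold difference, 4 clock genes were higher (5.46% of all genes) and 1, Nr1d2, was lower (11.8%). The libraries of UN and UH did not overlap for 5 clock genes that were higher (14.9% of all genes) and 3 that were lower (36.2%). The median of all genes was −0.19 (log2) in this comparison, 0.03 in SH vs SN, 0.17 in SH vs UH and −0.06 in SN vs UN, and the median of the clock genes in the same order was 0.00, 0.53, 0.16 and 0.13. Over genes averaging 1 TPM or more, as all 10 clock genes did, the median was −0.32, −0.06, 0.19 and −0.07 in that order.

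In sorted cells, where the comparison asked how re-exposure to hypoxia changed the clock genes, 3 were higher in SH than in SN (Bhlhe40, Bhlhe41 and Cry2, against 21.5% of all genes), 1 was lower (Nr1d2, against 19.5%) and 6 did not pass. No library of SH overlapped one of SN for these same 3 higher genes (29.7% of all genes) and for Nr1d2 (27.1%). All 3 higher genes differed by more than 2-fold, a rule met by 7.47% of all genes, and no clock gene was lower by that rule (5.0% of all genes). The Nr1d2 call was lost without SH1 (adjusted p 0.0505, limma).

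**Figure D1:**
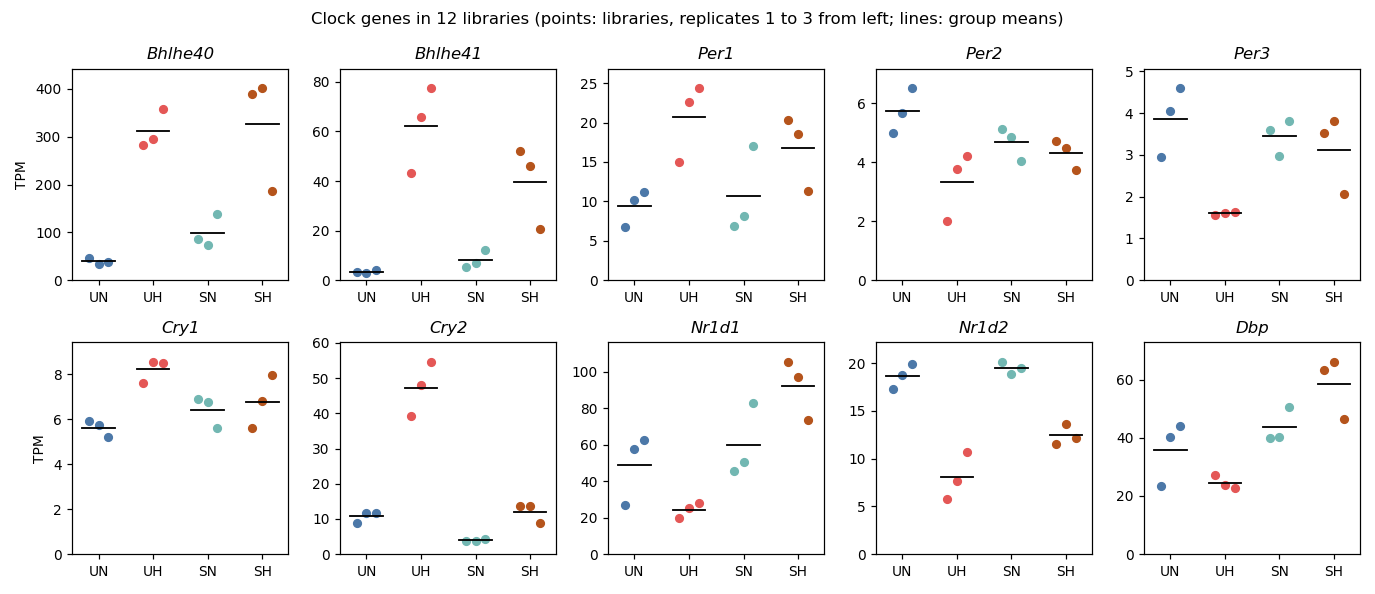
TPM of the 10 clock genes (vertical axes, linear from 0) in the 4 groups of 3 libraries, where points are libraries and lines are group means. Bhlhe40 ranged from 34.7 to 402 TPM and was above 186 TPM in each hypoxic library, while Nr1d1 was lowest in UH, at 20.1 to 28.2 TPM, and highest on average in SH, at 92.3 TPM.

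Bhlhe40 and Bhlhe41 encode DEC1 and DEC2, basic helix-loop-helix repressors that compete for E-boxes and are textbook targets of HIF. Bhlhe40 (chr6:108660629-108666925, plus strand, GRCm38) was 46.7, 34.7 and 39.1 TPM in UN1, UN2 and UN3 and 282, 295 and 357 TPM in UH1, UH2 and UH3. It was 85.9, 73.6 and 138 TPM in SN1 to SN3 and 389.7, 402 and 186 TPM in SH1 to SH3. Every hypoxic library was thus above every normoxic one, all SN libraries were above all UN libraries, and SH3 was the lowest hypoxic library. The difference was 2.93 ± 0.29 (log2 of TPM + 1, SE; adjusted p = 8.91e-06, limma) in UH vs UN and 1.68 ± 0.29 (adjusted p = 0.000717, limma) in SH vs SN. In TPM these were 7.76-fold and 3.29-fold higher group means.

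Bhlhe41 (chr6:145858243-145865558, minus strand), the gene with the E-box printed above, was 3.31, 2.84 and 3.95 TPM in the UN libraries and 43.2, 65.7 and 77.6 TPM in the UH libraries. In sorted cells it was 5.43, 6.97 and 12.3 TPM in SN and 52.3, 46.2 and 20.8 TPM in SH. The order of the groups by mean was UH, SH, SN and UN, and only the UH and SH libraries overlapped. The group means differed 18.4-fold in UH vs UN (log2 difference 3.82 ± 0.35, adjusted p = 5.10e-06, limma) and 4.82-fold in SH vs SN (2.11 ± 0.35, adjusted p = 0.000565, limma). SN3 and SH3 stood closer to each other than the other SN and SH libraries did for both Bhlhe genes.

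Sorted cells kept in normoxia had more RNA of both. In SN vs UN the log2 difference was 1.24 ± 0.29 for Bhlhe40 (adjusted p = 0.00614, limma) and 1.02 ± 0.35 for Bhlhe41 (adjusted p = 0.0424, limma). The Bhlhe41 call was lost without UN1, UN2, UN3, UH2, SN2, SN3 or SH2, with a log2 difference of 0.72 without SN3, and with a replicate block (adjusted p 0.0665) or no filter (0.0786). In hypoxia SH vs UH gave −0.01 for Bhlhe40 (adjusted p = 0.994, limma), a value whose sign turned without UH3 (0.09) or SH3 (0.35), and −0.69 for Bhlhe41 (adjusted p = 0.135, limma; −0.89 and 0.0420 with median-of-ratios scaling). Bhlhe40 was 92.2% ± 1.30 (SD, n = 3) of their summed TPM in UN, 83.6% ± 2.74 in UH, 92.4% ± 1.45 in SN and 89.3% ± 0.970 in SH.

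The period genes encode the PER scaffold proteins that carry the cryptochromes to BMAL1 and CLOCK, and they did not move together. Per1 (chr11:69095217-69109960, plus strand), also an immediate early gene, was 6.78, 10.2 and 11.2 TPM in UN and 15.0, 22.7 and 24.4 TPM in UH. It was 6.85, 8.20 and 17.1 TPM in SN and 20.3, 18.5 and 11.3 TPM in SH. All UH libraries were above all UN libraries, but SN3 was above SH3. Per1 rose in UH vs UN (1.06 ± 0.32, adjusted p = 0.0190, limma), a call lost without UN1 (0.86, adjusted p = 0.0713), UH2 or UH3. It did not pass in SH vs SN (0.66, adjusted p = 0.130, limma), where it passed without SN3 (1.02, adjusted p = 0.0200).

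Per2 (chr1:91415982-91459324, minus strand) was 4.99, 5.67 and 6.53 TPM in UN and 2.01, 3.78 and 4.21 TPM in UH, with no overlap. It was 5.13, 4.87 and 4.03 TPM in SN and 4.72, 4.49 and 3.75 TPM in SH, where the libraries overlapped. Per2 fell by 0.67 on the log2 scale in UH vs UN (adjusted p = 0.0188, limma), and the call was lost without UN3 (adjusted p 0.0721) or UH1 (0.0580) and with median-of-ratios scaling of the libraries (−0.38, adjusted p 0.0922).

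Per3 (chr4:151003652-151044665, minus strand), whose promoter holds both D-box copies shown above, was 2.95, 4.05 and 4.61 TPM in UN and 1.55, 1.61 and 1.63 TPM in UH. It was 3.59, 2.98 and 3.80 TPM in SN and 3.52, 3.81 and 2.06 TPM in SH. The UH libraries lay below the other 9, and SH3 was the next lowest. Per3 fell by 0.89 on the log2 scale in UH vs UN (adjusted p = 0.00271, limma), with every leave-one-out fit past the threshold. SH vs SN gave −0.13 (adjusted p = 0.638, limma) and 0.07 without SH3.

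Shares within the period family are given as a description. Per1 made up 46.0% to 51.3% of the summed TPM of the 3 period genes in UN, 80.7% to 80.8% in UH, 44.0% to 68.6% in SN and 66.1% to 71.2% in SH. The UN and UH shares did not overlap, and the SN and SH shares overlapped through SN3. The exact two-sided permutation test over 3 against 3 libraries cannot give a p below 0.1, so no share was called.

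The cryptochromes are the most direct inhibitors of BMAL1 and CLOCK, and Cry2 was the clock gene that differed in all 4 comparisons. Cry2 (chr2:92403646-92434043, minus strand) was 8.80, 11.8 and 11.6 TPM in UN and 39.3, 47.9 and 54.6 TPM in UH. It was 3.67, 3.74 and 4.23 TPM in SN and 13.8, 13.6 and 8.75 TPM in SH. SN was below every other library, UH above every other library, and UN and SH overlapped. Cry2 rose in UH vs UN (2.04 ± 0.19, adjusted p = 5.00e-06, limma) and in SH vs SN (1.39 ± 0.19, adjusted p = 0.000125, limma).

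Sorting went with less Cry2 at either oxygen level. It fell by 1.26 on the log2 scale from UN to SN (adjusted p = 0.000341, limma) and by 1.90 in SH vs UH (adjusted p = 1.15e-05, limma), which is 2.77-fold and 3.93-fold lower in mean TPM. All 4 Cry2 calls held in each fit that left out 1 library. Comparisons of SN with UN and of UH with UN share the UN libraries, and those of SH with UH and of SH with SN share SH, so their values are given side by side only.

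Cry1 (chr10:85131700-85185064, minus strand) moved less. It was 5.92, 5.75 and 5.18 TPM in UN and 7.61, 8.55 and 8.49 TPM in UH, with no overlap, and rose by 0.48 ± 0.15 on the log2 scale (adjusted p = 0.0186, limma). The call was lost without UN3 (adjusted p 0.0660) or UH2 (0.0615). In sorted cells it was 6.89, 6.77 and 5.60 TPM in SN and 5.59, 6.80 and 7.96 TPM in SH, overlapping, with a difference of 0.06 whose sign turned without SN3 or SH3. The Cry2 share of the 2 cryptochromes was 65.4% ± 4.93 (SD, n = 3) in UN, 85.1% ± 1.40 in UH, 37.8% ± 4.58 in SN and 63.4% ± 9.81 in SH, so Cry1 exceeded Cry2 in the SN libraries alone.

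**Figure D2:**
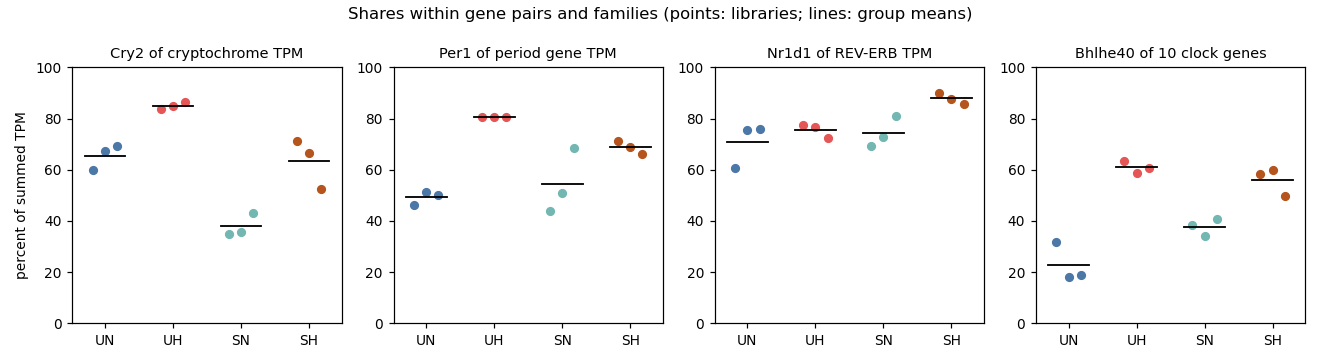
Percent of summed TPM (vertical axes, 0 to 100) taken by Cry2 within the cryptochromes, Per1 within the period genes, Nr1d1 within the REV-ERB pair and Bhlhe40 within all 10 clock genes, with points for libraries and lines for group means. The Per1 share lay between 80.7% and 80.8% in the 3 UH libraries, and the Cry2 share averaged 37.8% in SN against 85.1% in UH.

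Nr1d1 and Nr1d2 encode REV-ERB alpha and beta, heme-binding nuclear receptors that repress Arntl through NCOR1 and HDAC3. Nr1d1 (chr11:98767932-98775333, minus strand) was 26.8, 57.9 and 62.7 TPM in UN and 20.1, 25.2 and 28.2 TPM in UH. It was 45.7, 50.5 and 82.7 TPM in SN and 105.6, 97.4 and 73.8 TPM in SH. UN1 lay within the range of UH, while UN2 and UN3 were above all UH libraries, and SN3 was above SH3. Nr1d1 fell by 0.90 on the log2 scale in UH vs UN (adjusted p = 0.0309, limma) and the difference was −1.28 without UN1 (adjusted p 0.00157). That call was lost without UN2, UN3, UH1 or UH2 and with median-of-ratios scaling (−0.54, adjusted p 0.136).

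In sorted cells the Nr1d1 difference had the other sign. SH vs SN gave 0.65 ± 0.31 (adjusted p = 0.111, limma), which passed without UN1 (adjusted p 0.0343) or SN3 (0.91, adjusted p 0.0471). SH was above UH in every library, with a 3.77-fold higher mean (1.87 ± 0.31, adjusted p = 0.000506, limma). Nr1d1 shares 1075 bases with Thra on the opposite strand. The library kit keeps strand, but the strand setting of the quantification is not given in the sources used here. Thra gave 0.89 in SH vs SN (adjusted p = 0.00844, limma), −0.46 in UH vs UN (adjusted p = 0.124) and 0.27 in SH vs UH (adjusted p = 0.377). In SN vs UN it fell by 1.08 (adjusted p = 0.00346, limma), and its interaction was 1.35 ± 0.32 (adjusted p = 0.0128, limma), of the same sign as that of Nr1d1 (1.55). Its part in the Nr1d1 values was not tested.

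Nr1d2 (chr14:18204054-18239127, minus strand) was lower in hypoxia in both kinds of cells. It was 17.2, 18.7 and 19.9 TPM in UN and 5.80, 7.69 and 10.7 TPM in UH. It was 20.1, 18.9 and 19.4 TPM in SN and 11.5, 13.6 and 12.2 TPM in SH. All normoxic libraries were above all hypoxic ones, and SH was above UH. The fall was 1.15 on the log2 scale in UH vs UN (log2 difference −1.15 ± 0.17, adjusted p = 0.000174, limma) and −0.61 ± 0.17 in SH vs SN (adjusted p = 0.0127, limma). SH vs UH gave 0.60 ± 0.17 (adjusted p = 0.0138, limma), lost without SH2 or when UH and SH were fitted alone (adjusted p 0.0569). The Nr1d1 share of the pair was 60.9% to 75.9% in UN, 72.5% to 77.6% in UH, 69.4% to 81.0% in SN and 85.8% to 90.2% in SH, where no library overlapped another group.

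Dbp (chr7:45705088-45710203, plus strand) encodes the PAR bZIP activator that carries the clock to D-box genes. It was 23.4, 40.2 and 44.2 TPM in UN and 27.3, 23.7 and 22.7 TPM in UH. It was 39.9, 40.3 and 50.7 TPM in SN and 63.3, 66.1 and 46.5 TPM in SH. UN1 lay among the UH libraries and SH3 below SN3. Dbp did not pass in UH vs UN (−0.49 ± 0.22, adjusted p = 0.0872, limma) or in SH vs SN (0.41 ± 0.22, adjusted p = 0.155, limma). Without UN1 these were −0.76 (adjusted p 0.00320) and 0.41 (adjusted p 0.0446). SH was above UH in every library, with a 2.39-fold higher mean (1.21 ± 0.22, adjusted p = 0.000909, limma).

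**Figure D3:**
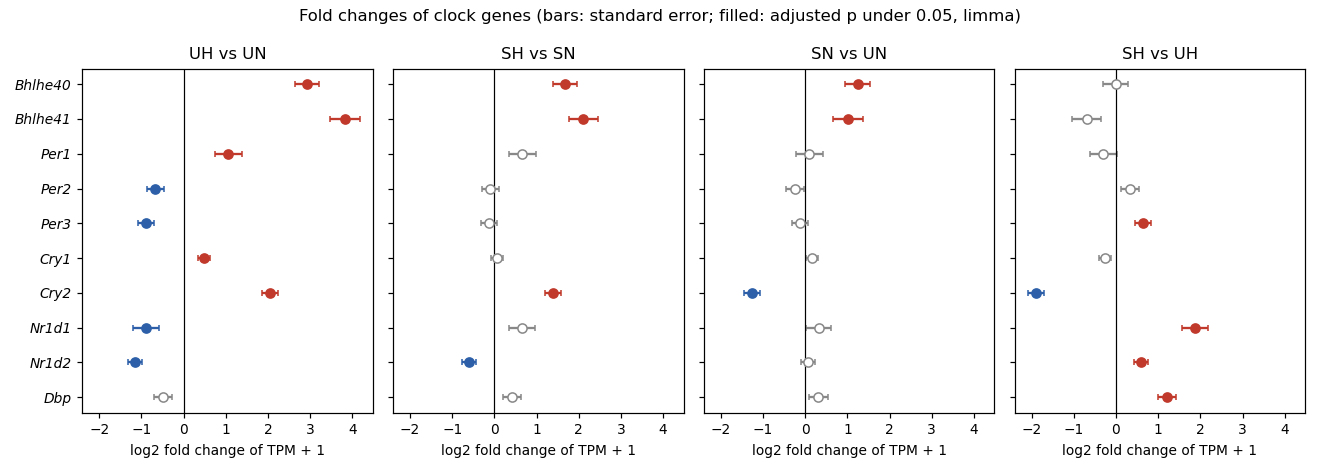
Log2 differences of TPM + 1 (horizontal axes) for the 10 clock genes in 4 comparisons, with bars for the standard error and filled points for an adjusted p under 0.05 in limma. Cry2 is filled in all 4 panels, at 2.04, 1.39, −1.26 and −1.90, and Nr1d1 lies at −0.90 in UH vs UN and at 1.87 in SH vs UH.

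Sorted and unsorted cells at the same oxygen level were compared to ask what set the sorted population apart. The sort, the earlier exposure to hypoxia and the days of expansion came together and cannot be told apart. In SN vs UN, 2 clock genes were higher (Bhlhe40 and Bhlhe41, against 13.0% of all genes), 1 was lower (Cry2, against 20.9%) and 7 did not pass. The libraries did not overlap for these same 2 higher genes (20.3% of all genes) and for Cry2 (28.7%), and all 3 differed by over 2-fold (3.2% of all genes higher, 7.57% lower). The 7 others had log2 differences from −0.24 (Per2) to 0.32 (Nr1d1 and Dbp). The Nr1d1 and Per1 values turned sign without UN1, to −0.06 and −0.10, and that of Per1 also without SN3 (−0.27).

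In SH vs UH, 4 clock genes were higher (Nr1d1, Dbp, Per3 and Nr1d2, against 28.3% of all genes), 1 was lower (Cry2, against 13.4%) and 5 did not pass, where median-of-ratios scaling gave 4 higher and 3 lower. No libraries overlapped for the same 4 (34.5% of all genes) and for Cry2 (17.2%). Per3 gave 0.64 ± 0.19 (adjusted p = 0.0204, limma), lost without UH2, SH1 or SH2. By the 2-fold rule 2 were higher, Nr1d1 and Dbp (7.65% of all genes), and Cry2 was lower (5.35%).

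Whether hypoxia acted differently on the clock genes in the 2 kinds of cells was tested as the interaction (SH − SN) − (UH − UN). It passed for 3 of the 10 clock genes, 1 higher (Nr1d1, against 17.4% of all genes) and 2 lower (Bhlhe40 and Bhlhe41, against 4.51%). All 3 exceeded 1 on the log2 scale, as did 8.08% of all genes that were higher and 2.18% that were lower. It was −1.25 ± 0.41 for Bhlhe40 (adjusted p = 0.0482, limma), −1.71 ± 0.50 for Bhlhe41 (adjusted p = 0.0298, limma) and 1.55 ± 0.43 for Nr1d1 (adjusted p = 0.0256, limma). The median over all genes was 0.25, and over the clock genes 0.07. The Bhlhe40 call was lost with a replicate block (adjusted p 0.0749), without a trend (0.0558) and without a filter (0.0830), and the Bhlhe41 call without a filter (0.0538, limma). The Bhlhe40 call was kept in the fits without UN1, SN2 or SH2 and lost in the other 9, where the value was −0.99 without SN3 and −0.89 without SH3. The Bhlhe41 call was lost without UN2, UH2, UH3, SN2 or SN3.

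The Nr1d1 interaction was kept without UN1 (1.93, adjusted p 0.00171, limma), UH3, SN3 or SH3 and lost in the other 8 fits, with adjusted p of 0.0502 to 0.0675. Dbp gave 0.90 ± 0.31 (adjusted p = 0.0563, limma) and passed without UN1 (1.17, adjusted p 0.00296) or SH3 (1.05, adjusted p 0.0360). Per3 gave 0.76 ± 0.28 (adjusted p = 0.0702, limma) and passed without UN1 (0.90) or SH3 (0.96). The interaction did not pass for Cry2 (−0.65, adjusted p = 0.102), Per1 (−0.40, adjusted p = 0.558), Per2 (0.58, adjusted p = 0.175), Cry1 (−0.42, adjusted p = 0.171) or Nr1d2 (0.54, adjusted p = 0.129) in limma. With median-of-ratios scaling, which gave 1 higher and 4 lower, those of Cry2 (−0.94, adjusted p 0.00771) and Cry1 (−0.67, adjusted p 0.0439) passed, and that of Nr1d2 passed without UH3 (0.74, adjusted p 0.0182).

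**Figure D4:**
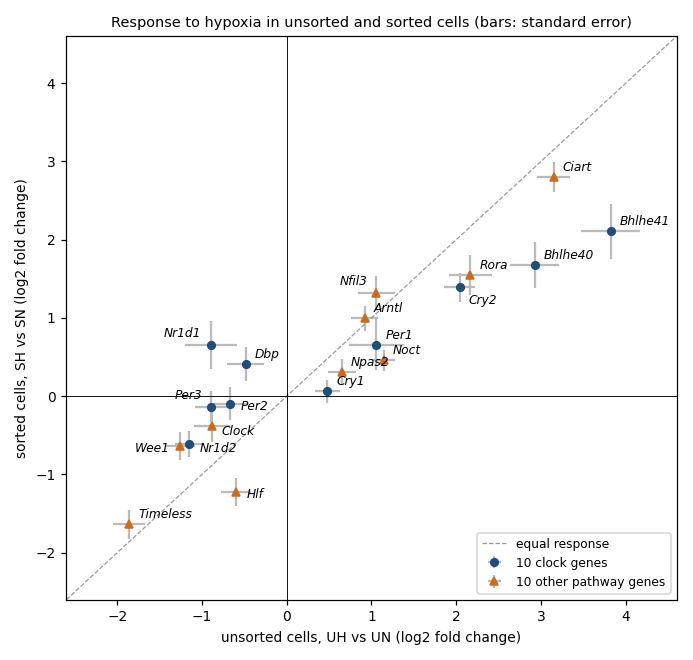
Log2 differences in UH vs UN (horizontal axis) against SH vs SN (vertical axis), which share no library, for the 10 clock genes (circles) and 10 other pathway genes (triangles), with standard errors and the line of equal response. Bhlhe41 lies at 3.82 and 2.11 and Bhlhe40 at 2.93 and 1.68, under the line, and Nr1d1 at −0.90 and 0.65, above it.

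The summed TPM of the 10 clock genes was 147 to 209 in UN, 444 to 589.5 in UH, 217 to 338 in SN and 374 to 673 in SH. Bhlhe40 alone was 22.9% ± 7.74 (SD, n = 3) of that sum in UN, 61.0% ± 2.40 in UH, 37.8% ± 3.51 in SN and 55.9% ± 5.31 in SH. By mean TPM the leading clock gene was Nr1d1 in UN and Bhlhe40 in the other groups, and the lowest was Bhlhe41 in UN and Per3 in the others.

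Likeness between genes was measured as the root mean square difference of their log2 profiles over the 12 libraries after centring, as a description with no test. Among the clock genes the closest were Per2 with Per3 (0.26), Per3 with Nr1d2 (0.29) and Nr1d1 with Dbp (0.31), and Bhlhe40 and Bhlhe41 were 0.46 apart. Of 13566 genes searched, those nearest to Bhlhe40 were Sbsn (0.29), Kcnk2 (0.33) and Gm3839 (0.36), and those nearest to Bhlhe41 were Fam57a (0.40), Itpk1 (0.41) and Atp7b (0.42).

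The other 26 genes of the pathway were taken as a list of activators, receptors, kinases, ubiquitin ligases, corepressors and outputs. In UH vs UN 7 rose and 7 fell (13.0% and 33.5% of all genes), and in SH vs SN 6 rose and 5 fell (21.5% and 19.5%). In SN vs UN 9 were higher and 3 lower (13.0% and 20.9% of all genes). In SH vs UH 7 were higher and 3 lower (28.3% and 13.4%). The counts in SH vs SN and SH vs UH were near the shares of all genes. With median-of-ratios scaling 9 rose and 5 fell in UH vs UN, while in SH vs UH 5 were above and 6 below. Their median log2 differences were −0.11, 0.00, 0.00 and 0.20 in that order.

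Among the activators, Arntl was higher in all 4 comparisons. It was 10.6, 13.6 and 14.1 TPM in UN, 20.8, 23.6 and 31.2 TPM in UH, 19.2, 20.2 and 19.8 TPM in SN and 41.0, 45.6 and 35.0 TPM in SH, with no overlap between any groups. The log2 differences were 0.92 in UH vs UN (adjusted p = 0.000555), 0.99 in SH vs SN (0.000417), 0.68 in SH vs UH (0.00509) and 0.60 in SN vs UN (0.0123, all limma). Clock, its partner, was 15.8 to 17.9 TPM in UN and 6.11 to 13.0 TPM in UH and fell by 0.88 (adjusted p = 0.00529, limma), with −0.37 in SH vs SN (adjusted p = 0.191). Npas2, the alternative partner, was 1.56 to 2.34 TPM in UN but 0.0293 to 0.0544 TPM in SN, and it fell by 1.45 between UN and SN (adjusted p = 4.17e-05, limma) and by 1.80 in SH vs UH (adjusted p = 5.71e-06, limma). In mean TPM these were 48.8-fold and 12.2-fold lower, because log2(TPM + 1) understates differences of genes this low. It rose in hypoxia in unsorted cells, to 2.70 to 4.51 TPM in UH (0.65, adjusted p = 0.00564, limma). In sorted cells it was 0.180 to 0.352 TPM in SH, above all SN libraries. There the difference did not pass (0.31, adjusted p = 0.150, limma), with a 7.56-fold higher mean at levels near 0 TPM.

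Among the receptors that activate Arntl, Rora was 1.84 to 2.22 TPM in UN and 8.19 to 19.1 TPM in UH and rose by 2.16 (adjusted p = 3.38e-05, limma), and it rose by 1.54 in SH vs SN (adjusted p = 0.000544, limma). Rorb was 0.646 to 1.07 TPM in UN and 4.34 to 4.69 TPM in SN and was higher in sorted cells by 1.63 in normoxia (adjusted p = 3.81e-06, limma) and 1.16 in hypoxia (adjusted p = 3.85e-05, limma).

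The repressors outside the 10 clock genes held the largest response to hypoxia of the 26. Ciart (CHRONO), which represses BMAL1 and CLOCK and whose promoter with its E-boxes is printed above, was 5.18, 6.55 and 8.83 TPM in UN and 59.0, 72.3 and 71.6 TPM in UH. It was 7.10, 4.83 and 7.97 TPM in SN and 51.2, 55.4 and 48.2 TPM in SH. It rose by 3.15 ± 0.19 in UH vs UN (adjusted p = 2.34e-07, limma) and by 2.81 ± 0.19 in SH vs SN (adjusted p = 1.01e-06, limma). In contrast to the Bhlhe genes, its interaction did not pass (−0.34, adjusted p = 0.385, limma), and the difference between these genes was not tested.

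Nfil3, which represses D-box genes that DBP activates, was 41.5 to 75.0 TPM in UN, 122 to 123 TPM in UH, 19.2 to 32.0 TPM in SN and 52.7 to 64.2 TPM in SH. It rose by 1.06 in UH vs UN (adjusted p = 0.00176, limma) and by 1.32 in SH vs SN (adjusted p = 0.000512, limma), and it was lower in sorted cells, by −1.29 in normoxia and −1.03 in hypoxia (adjusted p = 0.000755 and 0.00254, limma). The PAR bZIP factor Hlf gave −1.22 in SH vs SN (adjusted p = 0.000242, limma) and 1.12 in SN vs UN (adjusted p = 0.000586, limma), at 4.46 TPM or less in every library. Tef, of the same family, gave 1.33 in SH vs UH (adjusted p = 0.000855, limma).

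Timeless, which in mammals also acts at replication forks, was 16.1 to 22.6 TPM in UN and 3.94 to 5.33 TPM in UH and fell by 1.86 (adjusted p = 9.69e-06, limma), and by 1.63 in SH vs SN (adjusted p = 3.96e-05, limma). Wee1, a mitotic kinase gene under clock control, fell by 1.26 in UH vs UN (adjusted p = 0.000132, limma). All 4 proliferation markers fell in UH vs UN (33.5% of all genes) and 3 of 4 in SH vs SN (19.5% of all genes). The summed TPM of these markers was 474 to 544 in UN, 139 to 182 in UH, 526 to 605 in SN and 239.6 to 278 in SH. Their part in the Timeless and Wee1 values was not tested. Noct, an output gene listed under an older symbol, rose by 1.14 in UH vs UN (adjusted p = 4.10e-05, limma).

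**Figure D5:**
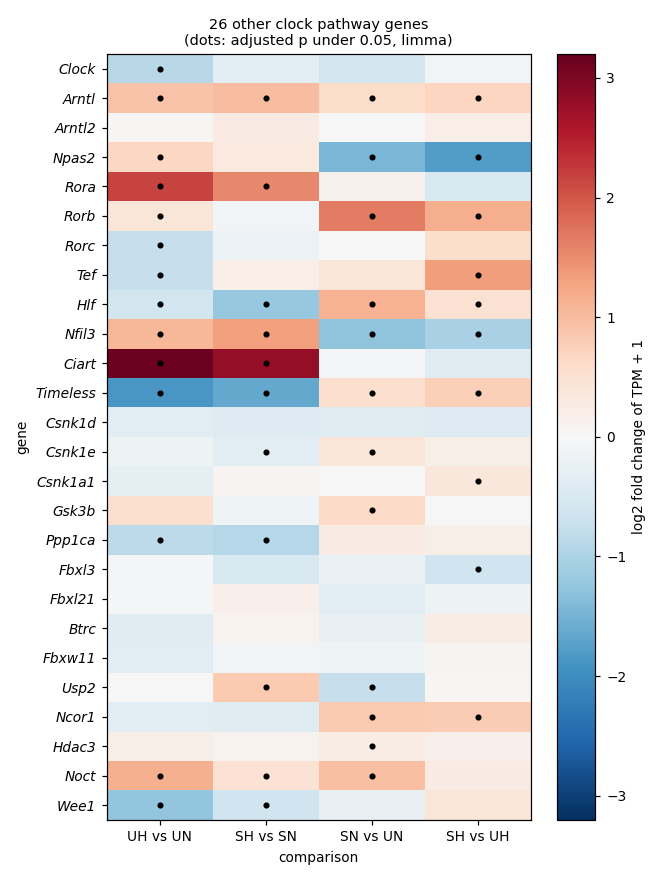
Log2 differences of TPM + 1 (color) for 26 other clock pathway genes (rows) in 4 comparisons (columns), with dots for an adjusted p under 0.05 in limma. Ciart stands at 3.15 and 2.81 in the 2 hypoxia comparisons, Arntl has a dot in all 4 columns, and Npas2 is lower in sorted cells by −1.45 and −1.80.

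The share of TPM from mitochondrially encoded genes moved with the groups as well, and 2 of 3 genes of HIF subunits were lower in sorted cells. That share was 5.18% to 7.55% in UN, 1.67% to 2.53% in UH, 7.64% to 8.38% in SN and 2.66% to 4.68% in SH. Rescaling without these genes changed the call of no clock gene other than Dbp in UH vs UN (−0.54, adjusted p 0.04999, limma), and the sign of Bhlhe40 in SH vs UH (0.0111). Of the genes of the HIF subunits, Hif1a and Epas1 were lower in SN than in UN (−0.83 and −1.65, adjusted p = 0.0138 and 0.000502, limma) and Arnt gave −0.39 (adjusted p = 0.161, limma). Hif1a and Epas1 were also lower in SH than in UH (−1.09 and −1.40, adjusted p = 0.00228 and 0.00115, limma). None of the 3 genes passed in UH vs UN or in SH vs SN. The part of either in the clock gene values was not tested.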

How the data were processed

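RNA of BN1-Tie2-EGFP cells, 12 samples in 4 groups of 3 (UN, UH, SN, SH) was sequenced as stranded paired-end libraries. The authors processed the reads with nf-core/rnaseq 3.12.0 (mm10 per the labels) and deposited 1 table of TPM, transcripts per 1000000 from its Salmon step. The annotation release and the strand setting are not given in the sources used here. TPM keep no depth, so the depth of each library is unknown and precision rests on the spread between libraries. Groups were taken from the sample titles, and oxygen levels and days from the study's methods.

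Values were transformed as log2(TPM + 1), which understates the change of low genes. Genes averaging 0.1 TPM or more were modelled in R 4.3.3 with limma 3.58.1 (4 group means, empirical Bayes with a trend), Benjamini-Hochberg adjusted over all 18909 genes in each of 5 comparisons and called at an adjusted p under 0.05. The fit was tested on simulated data with independent noise, changes planted in UH alone and no outlying library. That test cannot speak to calls that turn on single libraries such as UN1, SN3 or SH3. Tables and figures used Python 3.11.15, numpy 2.4.6, pandas 2.3.3 and matplotlib 3.10.9. Coordinates are from GENCODE M21 (GRCm38), where 98.8% of gene IDs were found.

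All 10 clock genes are counted in every comparison and named with a value wherever they passed. Of the 26 pathway genes, Clock, Arntl, Npas2, Nfil3, Rora and Ciart are named whatever their result, though not with values in every comparison. Others are named where they passed with over 2-fold difference, Usp2 being named for its interaction. The members and lists were chosen with earlier results of these data known. The alternatives were a pseudocount of 0.1, no filter, a filter at 1 TPM, median-of-ratios scaling, rescaling without mitochondrially encoded genes, the compared groups fitted alone, no trend, a 2-fold rule, a replicate block and leaving out each library.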

Additional observations from a re-analysis of the deposited data

Results flagged for a closer look

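The interaction (SH − SN) − (UH − UN) passed in limma for 3 of the 10 clock genes and 2 of the 26 other pathway genes. Each of the 3 clock gene calls was lost in some fits that left out 1 library. Those fits gave 0 to 3 higher and 0 to 2 lower clock genes, and 0 to 2 higher and 0 to 2 lower pathway genes. The pathway calls, 1 higher and 1 lower, did not exceed the shares of all genes given next. On the log2 scale the difference was −1.25 for Bhlhe40 (adjusted p = 0.0482), −1.71 for Bhlhe41 (adjusted p = 0.0298) and 1.55 for Nr1d1 (adjusted p = 0.0256), where 17.4% of all genes were higher and 4.51% lower. For Usp2, a deubiquitinase gene under clock control, it was 0.81 (adjusted p = 0.0454, limma). Usp2 was 0.896 to 1.03 TPM in UN, 0.624 to 1.50 in UH, 0.0804 to 0.278 in SN and 0.629 to 1.47 in SH, and with median-of-ratios scaling its interaction was 0.64 (adjusted p 0.0895). With that scaling 0 of the 26 pathway genes had a higher interaction and 5 a lower one (Rorb, Csnk1e, Gsk3b, Hdac3 and Noct, chosen for naming after their values were seen). For Noct, the clock-controlled gene for nocturnin, the interaction was −0.69 (adjusted p = 0.0281, limma). Noct was 13.3 to 15.7 TPM in UN, 29.4 to 36.2 in UH, 25.3 to 34.9 in SN and 36.0 to 42.7 in SH.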

How the results depend on the processing

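Replicate numbers did not pair the libraries: the correlation of same-numbered deviations ran from −0.07 to 0.17. With a replicate block, 1 clock gene instead of 2 was higher in SN vs UN (Bhlhe41 was lost) and 1 instead of 2 had a lower interaction (Bhlhe40 was lost), and no other count changed. With median-of-ratios scaling, 2 clock genes instead of 4 were lower in UH vs UN, 3 instead of 1 lower in SH vs UH (Cry2, Bhlhe41 and Cry1) and 4 instead of 2 had a lower interaction. Shares of all genes were not set beside the counts of these other fits, so such counts describe the clock genes alone. With only the groups compared in the fit, 2 were lower in UH vs UN. Without a filter, 1 was higher in SN vs UN and 0 had a lower interaction, where a filter at a mean TPM of 1 gave 2 higher interactions and a fit without a trend 1 lower. By the 2-fold rule 1 was lower in UH vs UN, 0 lower in SH vs SN and 2 higher in SH vs UH. The Bhlhe40 value in SH vs UH became 0.0111 when rescaled without mitochondrially encoded genes. Leaving out each library gave 3 to 5 higher and 2 to 5 lower in UH vs UN, 3 to 5 and 0 to 1 in SH vs SN, 1 to 2 and 1 in SN vs UN, 2 to 4 and 1 in SH vs UH, and 0 to 3 and 0 to 2 for the interaction. Of values that turned sign, none of which had passed, Bhlhe40 in SH vs UH ran from −0.20 to 0.35 (0.0936 without UH3, 0.35 without SH3), Per1 in SN vs UN from −0.27 (without SN3) to 0.34 (−0.10 without UN1), Per3 in SH vs SN from −0.26 to 0.0693 (without SH3), Cry1 in SH vs SN from −0.0451 (without SH3) to 0.18 (−0.0201 without SN3) and Nr1d1 in SN vs UN from −0.0634 (without UN1) to 0.53. Over single genes, leaving out 1 library kept direction and call for 537 values, while 45 lost a call, 10 gained one and 8 turned sign. Under the other settings 371 values kept both, 12 lost a call, 6 gained one and 1 turned sign. Many directions were kept by design. Leaving out a library of neither group compared cannot change a difference, only its adjusted p. The same holds for the filters, the fit without a trend, the replicate block and the compared groups fitted alone. The causes were not tested.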
